A study of Rattus norvegicus with 15 samples.

Results

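The genes described here are 10 genes of the blood vessel wall and of leukocyte adhesion in the rat retina. They were chosen by gene symbol: Pecam1, Cldn5, Cdh5, Kdr and Tek as genes of endothelial cells, and Icam1, Vcam1, Selp, Sele and Madcam1 as adhesion molecules that leukocytes bind. Of the 10 symbols, 9 were found among the 20375 genes listed. Pecam1 was not matched by symbol and was not analysed here. Of the 9, 8 passed the filter on low values and were tested, and Madcam1 lay below it in every library.

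Retinal endothelial cells form the inner blood-retina barrier. Claudin-5, the product of Cldn5, seals their tight junctions, and VE-cadherin, the product of Cdh5, holds neighbouring cells together at adherens junctions. Leukocytes leave the blood in steps: they roll on the selectins, arrest on ICAM-1 and VCAM-1, and then pass the endothelium, while MAdCAM-1 is known as the addressin of gut vessels. Inflammatory cytokines induce Icam1 and Vcam1 in endothelium, and both genes are also known in glia, pigment epithelium and leukocytes.

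RNA sequencing was performed on whole retinas of wild-type Sprague-Dawley rats, in 15 libraries of 5 groups with 3 libraries each. The labels give postnatal week 12 and day 31 after transplantation for every library. The no-treatment (NT) rats received neither cells nor sodium iodate (NaIO3), an oxidant that damages the pigment epithelium and then the photoreceptors. The other 4 groups were given NaIO3 at 40 mg/kg, days after an injection into the vitreous of the eye. Sham eyes were injected with vehicle, MSC eyes with mesenchymal stem cells from human Wharton's jelly, and MSCEPO eyes with such cells made to express erythropoietin. The DPSC group is known only by that label, as cells transplanted in the same way. Rats given a xenograft also received dexamethasone at 2 mg/kg and then cyclosporin at 10 mg/kg/day, so transplanted cells and immunosuppression cannot be told apart against NT or Sham. The labels do not say that the libraries of a group came from separate animals, and p-values then measure only the spread between these libraries.

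The deposited values are regularized log (rlog) values on a log2 scale, which shrink each library toward the mean of the gene, so that differences come out smaller than they would from counts. They hold no depth. Library medians over the tested genes lay between 8.63 and 8.82. MSC replicate 1 and MSCEPO replicate 3 stood apart, with a mean Euclidean distance to the other libraries of their own group of 73.3 and 91.0, where the other 13 libraries lay between 29.9 and 68.9. Of 10 rod genes 9 were found and passed the filter, so the label of retina held. Of 20 marker genes of endothelial identity, 19 passed it. In whole retina, fewer cells of a type and less RNA per cell cannot be told apart, and reads of human cells that match rat transcripts cannot be separated from rat reads.

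The promoters of Icam1, Vcam1 and Madcam1 are printed because Icam1 and Vcam1 moved most over the groups and Madcam1 kept a low value. They are RefSeq windows of 300 bases on assembly GRCr8, from 250 bases before to 50 bases after the start of transcription, written 5′ to 3′ on the strand of the gene. The windows lie at chr8:27829595-27829894 (plus strand), chr2:206742734-206743033 (minus strand) and chr7:10690273-10690572 (minus strand). Capitals mark matches, on either strand, to GGNNNTTCC, a short form of the NF-kB motif, and to TTCNNNGAA, a short form of the STAT motif.
Icam1: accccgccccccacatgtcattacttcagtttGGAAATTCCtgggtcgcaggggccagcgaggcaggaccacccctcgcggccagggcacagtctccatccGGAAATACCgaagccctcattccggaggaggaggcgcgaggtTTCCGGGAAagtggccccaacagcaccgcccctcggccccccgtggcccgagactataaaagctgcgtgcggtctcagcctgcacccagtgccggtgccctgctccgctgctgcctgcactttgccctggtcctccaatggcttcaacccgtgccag
Vcam1: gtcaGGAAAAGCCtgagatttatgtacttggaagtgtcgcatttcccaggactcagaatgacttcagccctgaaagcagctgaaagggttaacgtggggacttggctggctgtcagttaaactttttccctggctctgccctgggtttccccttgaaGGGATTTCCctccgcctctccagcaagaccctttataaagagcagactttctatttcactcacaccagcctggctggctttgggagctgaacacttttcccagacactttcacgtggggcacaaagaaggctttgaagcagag
Madcam1: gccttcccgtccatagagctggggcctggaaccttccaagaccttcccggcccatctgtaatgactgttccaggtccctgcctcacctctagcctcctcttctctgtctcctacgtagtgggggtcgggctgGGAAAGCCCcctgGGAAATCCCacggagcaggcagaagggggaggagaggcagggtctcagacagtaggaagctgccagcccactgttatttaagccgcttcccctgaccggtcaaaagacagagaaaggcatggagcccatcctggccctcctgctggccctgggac

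In the Icam1 window the NF-kB form began at -218, where it reads on both strands, and at -149, and the STAT form began at -107. The Vcam1 window held the NF-kB form at -246 and -93, and the Madcam1 window held it at -118 and -105. Windows were matched for 6 of the 10 symbols, and those of Cldn5, Kdr and Sele held neither form. Among 33469 rat promoter windows, 18.3% held the NF-kB form and 8.87% the STAT form. A match describes letters and not a bound site, and Madcam1, with as many places matched as Icam1 and Vcam1 have for the NF-kB form, had a low value throughout.

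The first comparison set Sham against NT, which asks what vehicle injection and NaIO3 did to vascular genes. None of the 8 tested genes passed limma with Benjamini-Hochberg adjustment over all genes (adjusted p under 0.05 and over 2-fold), where 0.344% of the 15429 genes tested did. Without MSC replicate 1 and MSCEPO replicate 3 it was still 0 of 8, against 1.1% of all genes. In that fit 4 of 8 had an adjusted p under 0.05 by limma, against 9.56% of all genes. With all libraries, 2 of 8 had an unadjusted p under 0.05, against 11.7% of all genes. Fold changes are given as differences of rlog values, in log2 units. All 8 differences were positive, with a median of 0.47 against 0.01 over all genes, and 51.2% of all genes had a positive difference. Those of Selp and Sele were near 0, at 0.035 and 0.003, and the sign of Sele turned under 6 of 16 alternative ways of processing. In 5 of the 8 genes the 3 Sham libraries lay above the 3 NT libraries without overlap, against 16.6% of all genes. These were the junction genes Cldn5 and Cdh5, the receptor genes Kdr and Tek, and Icam1.

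Cldn5 stood at 8.52, 8.30 and 8.08 in the NT libraries and at 8.76, 8.90 and 8.64 in the Sham libraries. The difference was 0.47 (SE 0.22, adjusted p = 0.449 by limma). In MSC and DPSC Cldn5 lay near NT: it was 8.47, 8.18 and 8.17 in MSC and 8.50, 8.43 and 8.13 in DPSC. The MSC libraries were below all Sham libraries, with a difference of -0.50 (SE 0.22, adjusted p = 0.376 by limma), and so were the DPSC libraries, with -0.42 (SE 0.21, adjusted p = 1 by limma). The MSCEPO libraries stood at 8.46, 8.33 and 9.25, with a mean of 8.68 against 8.30 in NT. MSCEPO replicate 3, which stood apart, thus had the highest Cldn5 value of the 15 libraries, and the other 2 MSCEPO libraries lay within the NT range.

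Cdh5 was 6.56, 6.64 and 6.18 in NT and 7.03, 7.11 and 7.11 in Sham. The Sham libraries were close together (SD 0.05) and above NT by 0.62 (SE 0.24, adjusted p = 0.307 by limma). This SE is pooled over a fit that also holds MSC and MSCEPO, where the SD was 0.464 and 0.325. The transplanted groups spread more widely. Cdh5 was 7.63, 6.82 and 6.84 in MSC, with every library above NT and a difference of 0.64 (SE 0.24, adjusted p = 0.0956 by limma). In MSCEPO it was 7.19, 7.01 and 6.56, and in DPSC 6.80, 7.55 and 6.26, both overlapping NT. The highest values were those of MSC replicate 1 and DPSC replicate 2, and the lowest those of NT replicate 3 and DPSC replicate 3.

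Markers of pericytes and mural cells, which wrap the endothelium, were low in the 3 libraries with the lowest Cdh5 values, but not in all libraries with low Cdh5. The mean of the 14 markers, as a difference from the NT mean, was -0.41 in NT replicate 3, -0.60 in DPSC replicate 3 and -0.20 in MSCEPO replicate 3, and it was 0.40 in MSC replicate 1 and 0.37 in DPSC replicate 2. It was 0.30 in NT replicate 1, 0.11 in NT replicate 2 and 0.54 in DPSC replicate 1, where Cdh5 was 6.56, 6.64 and 6.80. Over the groups it ran from -0.41 to 0.30 in NT, 0.29 to 0.66 in Sham, -0.14 to 0.40 in MSC, -0.20 to 0.31 in MSCEPO and -0.60 to 0.54 in DPSC. The part of these cells in the Cdh5 values was not tested.

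Tek encodes TIE2, the angiopoietin receptor that keeps vessels quiescent. Its NT values were 7.72, 7.68 and 7.39 and its Sham values 8.17, 8.09 and 7.94, a difference of 0.47 (SE 0.23, adjusted p = 0.477 by limma). In MSC only replicate 1, at 8.53, lay above the Sham range, and the other 2 libraries, at 7.65 and 7.64, lay within the NT range. The MSCEPO values were 8.23, 7.72 and 8.01 and the DPSC values 7.93, 8.14 and 7.43, so both groups overlapped NT.

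Kdr encodes VEGFR2, a receptor for VEGF that endothelium carries and that other retinal cells are also known to express. Its mean over the 15 libraries was 13.68, far above Cldn5 at 8.47, Tek at 7.88 and Cdh5 at 6.89. The cell source of its reads was not tested. It stood at 13.33, 13.48 and 13.39 in NT and at 13.77, 13.93 and 13.66 in Sham, a difference of 0.39 (SE 0.19, adjusted p = 0.478 by limma). All MSCEPO libraries, at 14.02, 13.76 and 13.67, were above NT, by 0.41 on average (SE 0.19, adjusted p = 0.201 by limma). The MSC libraries were split: 13.98 and 13.95 in replicates 2 and 3 and 13.21 in replicate 1, the lowest of the 15 libraries. In that same library Cdh5, Tek, Icam1, Vcam1, Selp and Sele each had their highest value. DPSC stood at 13.40, 13.97 and 13.68 and overlapped NT.

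**Figure D1:**
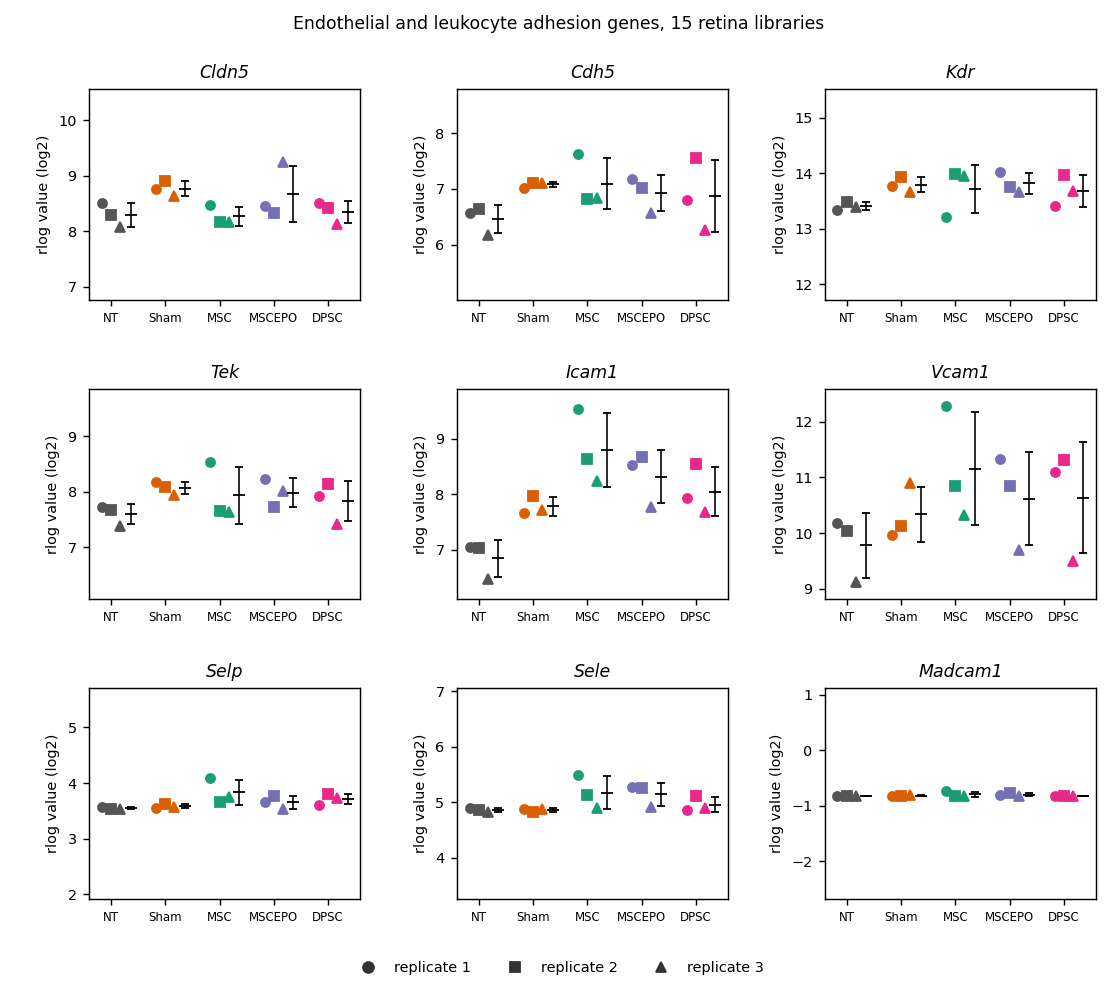
The 9 genes found by symbol, with rlog values (log2) on the vertical axis and the 5 groups on the horizontal axis; each point is a library, its shape gives the replicate number, and bars give the mean and SD of 3 libraries. Icam1 is the gene in which all Sham and all transplanted libraries lie above NT, from 7.65 to 9.54 against 6.47 to 7.04, and Madcam1 stays between -0.83 and -0.74.

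Icam1, the ligand of the leukocyte integrins LFA-1 and Mac-1, was the member with the largest span of group means, 1.95 log2 units. Its NT values were 7.04, 7.03 and 6.47 (mean 6.85 ± 0.33, SD, n = 3), and its Sham values were 7.65, 7.97 and 7.72 (7.78 ± 0.17). Every Sham library was above every NT library, with a difference of 0.94 (SE 0.33) that did not pass the test (limma adjusted p = 0.267). The MSC values were 9.54, 8.63 and 8.24 (8.80 ± 0.67), the MSCEPO values 8.52, 8.67 and 7.77 (8.32 ± 0.48) and the DPSC values 7.93, 8.54 and 7.68 (8.05 ± 0.44). In the order of group means, MSC, MSCEPO, DPSC, Sham and NT, neighbours overlapped except Sham and NT.

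Icam1 rose in MSC against NT by 1.95 (SE 0.33, 95% interval 1.23 to 2.68, adjusted p = 0.00369 by limma), and it was 1 of 8 tested genes to pass, where 6.5% of all genes did. Icam1 also rose in MSCEPO against NT by 1.47 (SE 0.33, interval 0.74 to 2.20, adjusted p = 0.0186 by limma), again as 1 of 8, where 3.56% of all genes passed. In DPSC against NT the difference was 1.20 (SE 0.34, interval 0.47 to 1.93), with adjusted p = 0.0792 by limma. There none of the 8 genes passed, 1 had an unadjusted p under 0.05, and 0.784% and 16.8% of all genes did so respectively. The 4 comparisons share the NT libraries.

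These calls rested unequally on single libraries. The call in MSC held with each library left out in turn, with adjusted p from 0.00203 to 0.0218 by limma. The call in MSCEPO was lost without NT replicate 3 (adjusted p = 0.0872 by limma), without MSCEPO replicate 1 (0.0568) or without MSCEPO replicate 2 (0.0712). Without MSC replicate 1 and MSCEPO replicate 3 together, a choice made after seeing the data that also lowers the spread used in the test, the difference from NT was 1.58 in MSC, 1.75 in MSCEPO and 1.20 in DPSC, with limma adjusted p of 0.000462, 0.000228 and 0.00896.

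Against Sham, Icam1 did not pass in any group. All 3 MSC libraries were above Sham, with a difference of 1.02 (SE 0.33, interval 0.29 to 1.75, adjusted p = 0.198 by limma). The MSCEPO difference was 0.54 (interval -0.19 to 1.26, adjusted p = 0.734 by limma) and the DPSC difference 0.26 (interval -0.46 to 0.99, adjusted p = 1 by limma), with overlapping libraries in both. MSCEPO minus MSC was -0.48 (interval -1.21 to 0.24, adjusted p = 0.793 by limma).

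Vcam1, the ligand of integrin alpha-4 beta-1 on lymphocytes and monocytes, spread widely within groups. It was 10.18, 10.04 and 9.11 in NT and 9.97, 10.13 and 10.90 in Sham, which overlapped. The MSC values were 12.29, 10.85 and 10.33, all above NT, with a difference of 1.38 (SE 0.54, interval 0.19 to 2.58, adjusted p = 0.113 by limma). This difference was 0.81 without MSC replicate 1 and MSCEPO replicate 3 (adjusted p = 0.122 by limma).

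The MSCEPO values of Vcam1 were 11.33, 10.84 and 9.69 and the DPSC values 11.11, 11.32 and 9.49. In both groups replicates 1 and 2 lay above NT and replicate 3 within it, with mean differences of 0.84 (SE 0.54, adjusted p = 0.358 by limma) and 0.86 (SE 0.59, adjusted p = 0.513 by limma). Without the 2 libraries that stood apart, Vcam1 rose in MSCEPO against NT by 1.31 (adjusted p = 0.0201 by limma). Against Sham the differences were 0.82 in MSC, 0.28 in MSCEPO and 0.30 in DPSC, and 95% intervals reached from -0.37 to 2.02, -0.91 to 1.48 and -0.98 to 1.59. The groups did not pass the test in any of these comparisons, and the intervals also hold differences over 2-fold.

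The selectins catch rolling leukocytes, Selp from stored granules of endothelium and platelets and Sele after induction. Selp lay just above the filter. It was 3.57, 3.53 and 3.54 in NT and 3.56, 3.62 and 3.56 in Sham, which overlapped, and 4.09, 3.66 and 3.76 in MSC, all above NT and Sham. The MSC difference was 0.29 from NT (SE 0.11, adjusted p = 0.0959 by limma) and 0.25 from Sham (SE 0.11, adjusted p = 0.342 by limma). Selp stood at 3.65, 3.77 and 3.54 in MSCEPO, and at 3.61, 3.80 and 3.73 in DPSC, where each library was above NT by a mean of 0.17 (SE 0.10, adjusted p = 0.454 by limma).

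Sele had 4.89, 4.85 and 4.83 in NT and 4.87, 4.82 and 4.88 in Sham, with no separation of the 2 groups. It was 5.48, 5.13 and 4.90 in MSC and 5.26, 5.25 and 4.90 in MSCEPO, so each library of both groups lay above every NT and Sham library. The margin was narrow, with lowest values of 4.895 in MSC and 4.903 in MSCEPO and a highest NT value of 4.887. The differences from NT were 0.31 (SE 0.15, adjusted p = 0.183 by limma) and 0.28 (SE 0.15, adjusted p = 0.255 by limma), and the differences from Sham were 0.31 and 0.28 with adjusted p = 0.414 and 0.684 by limma. The sign of the MSC difference from NT turned with quantile normalization (-0.075). In DPSC, at 4.86, 5.11 and 4.88, Sele overlapped both.

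Madcam1, the gut addressin, had values from -0.83 to -0.74 in the 15 libraries and group means within 0.03 of each other. A value this far below the filter of 3.32 gives no level to compare, and no test was run on it. The cytokine genes Ifng and Il6, which can act upstream of these molecules, also lay below the filter, from -0.58 to -0.39 and from 0.95 to 1.20, and Tnf lay between 2.33 and 2.63. Il1b and Ltb passed the filter, and were higher in MSC than in NT by 1.03 and 1.00 with limma adjusted p of 0.0647 and 0.0663, which did not pass. Ltb lay near the filter in NT and Sham, with means of 3.26 and 3.35. It passed with the higher values of MSC (4.27) and MSCEPO (3.99), so its p-values carry no weight here. Without the 2 libraries that stood apart, the MSC differences from NT were 0.52 for Il1b and 0.61 for Ltb. In MSCEPO they were 0.58 and 1.09.

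**Figure D2:**
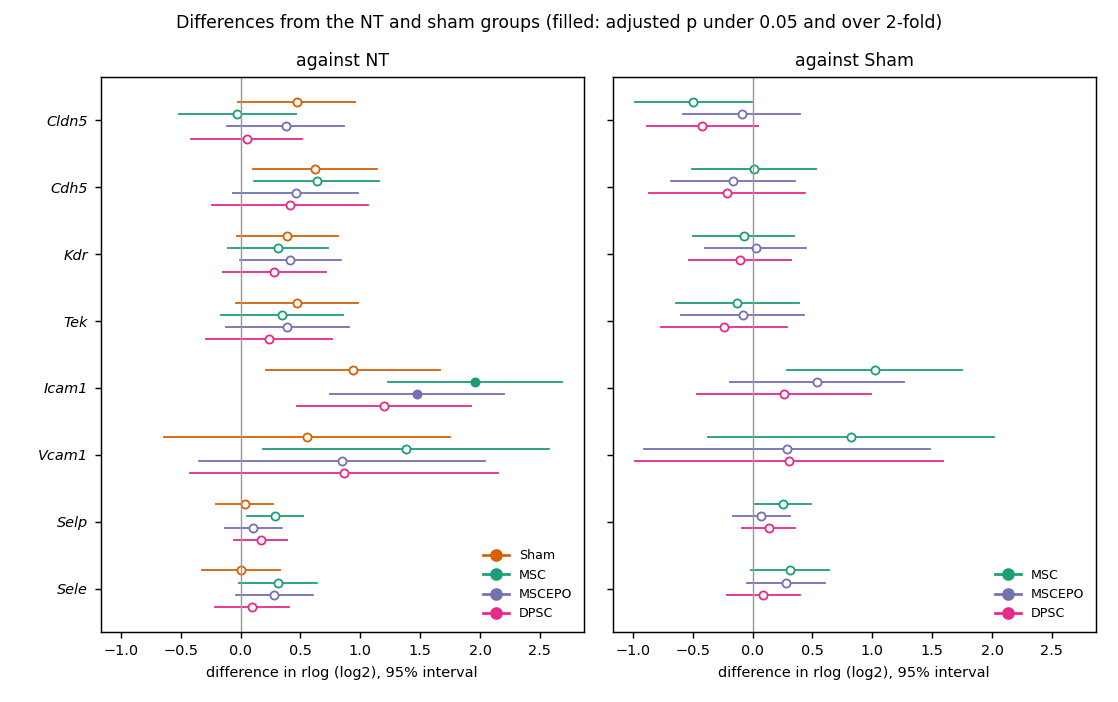
Differences in rlog value (log2, horizontal axis) of the 8 tested genes, against NT on the left and against Sham on the right, with 95% intervals from limma; filled points passed the limma test at 0.05 with over 2-fold. The 2 filled points are Icam1 in MSC (1.95) and in MSCEPO (1.47) against NT, and no point against Sham is filled.

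Over the members as a set, the differences from NT had medians of 0.47 in Sham, 0.33 in MSC, 0.40 in MSCEPO and 0.26 in DPSC. The medians over all genes lay within 0.01 of 0. The 3 transplanted libraries lay above NT without overlap in 5 of 8 genes for MSC, 3 of 8 for MSCEPO and 2 of 8 for DPSC, against 22.9%, 16.4% and 16% of all genes. In MSC these were Cdh5, Icam1, Vcam1, Selp and Sele, in MSCEPO Kdr, Icam1 and Sele, and in DPSC Icam1 and Selp.

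Set against Sham, the medians were 0.13 in MSC, 0.05 in MSCEPO and -0.01 in DPSC. None of the 8 genes passed limma in any of the 3 comparisons, where 0.0843%, 0.0454% and 0.013% of all genes did. At an unadjusted p under 0.05 the counts were 3, 0 and 0, against 12.9%, 7.85% and 2.37% of all genes. The 3 genes in MSC were Icam1 and Selp, which were higher, and Cldn5, which was lower. Libraries did not overlap in 4 of 8 genes for MSC, in 1 for MSCEPO and in 1 for DPSC, against 24.5%, 14.2% and 9.82% of all genes. Without the 2 libraries that stood apart, 0 of 8 passed limma in each of the 3, against 1.44%, 2.04% and 0.0389% of all genes. There 1, 2 and 0 of the 8 had an adjusted p under 0.05 by limma with less than 2-fold. At that adjusted p, whatever the fold, the shares of all genes were 3.56%, 7.71% and 0.0584%. With DESeq2 and the same limits, the paper counted far more genes in MSC and in MSCEPO against Sham than passed limma here. A gene that did not pass here is thus not shown to be unchanged.

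MSCEPO was also set against MSC. For the MSCEPO cells the paper describes lentiviral transduction, a GFP marker and cell sorting. The effects of these steps and of erythropoietin cannot be told apart here. None of the 8 genes passed limma, and 1 of all 15429 genes did (0.00648%). At an unadjusted p under 0.05 the count was again 0 of 8, against 3.14% of all genes. No gene of the 8 had separate libraries, where 4.09% of all genes did. The differences ran from -0.54 for Vcam1 (interval -1.73 to 0.66, adjusted p = 0.795 by limma) to 0.40 for Cldn5, with a median of -0.10, and the Vcam1 interval holds differences over 2-fold. Without the 2 libraries that stood apart, the Icam1 difference turned from -0.48 to 0.16 and that of Vcam1 from -0.54 to 0.49.

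The wider pathway was read from gene lists that share no gene with the 10 members, with counts over the tested genes of each list. Of all genes, 0.344% passed limma against NT in Sham, 6.5% in MSC, 3.56% in MSCEPO and 0.784% in DPSC. At an unadjusted p under 0.05 by limma these shares were 11.7%, 29.5%, 25.7% and 16.8%. Without the 2 libraries that stood apart, the shares that passed were 1.1%, 5.82%, 6.93% and 1.78%. Of 19 further endothelial identity genes, all 19 were higher in Sham than in NT, with a median of 0.35, and none passed limma, while 10 had an unadjusted p under 0.05, where 11.7% of all genes did. The gene with the smallest adjusted p was Rasip1, which keeps vessel lumens open, at 0.77 (SE 0.18, adjusted p = 0.0809 by limma). In MSC 17 of 19 were higher than NT with a median of 0.29, and Cd34, a sialomucin of endothelium and progenitor cells, rose by 1.60 (SE 0.40, adjusted p = 0.0211 by limma). In the fit without the 2 libraries that stood apart, Cd34 passed in Sham (1.33, adjusted p = 0.000502 by limma), in MSC and in MSCEPO. The medians were 0.26 in MSCEPO and 0.24 in DPSC with 0 genes passing limma in each, and with 7 and 2 genes at an unadjusted p under 0.05, against 25.7% and 16.8% of all genes.

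The 17 tested barrier genes, of tight junctions, caveolae and transporters, moved little. Their medians against NT were 0.04 in Sham, -0.15 in MSC, -0.09 in MSCEPO and -0.06 in DPSC, and 0 genes passed both limits of the limma test in any group. At an unadjusted p under 0.05 there were 5, 8, 6 and 4 of the 17, in both directions, where the shares of all genes were 11.7%, 29.5%, 25.7% and 16.8%.

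Among the 17 VEGF and angiopoietin genes, Pgf, which encodes placental growth factor, a ligand of VEGFR1, rose in MSC by 1.15 (SE 0.23, adjusted p = 0.00881 by limma) and in MSCEPO by 1.17 (SE 0.23, adjusted p = 0.011 by limma). It was the 1 gene of the list that passed in each. With the 2 libraries that stood apart left out, the differences were 0.98 in MSC, which is under 2-fold and did not pass, and 1.30 in MSCEPO, which did (limma adjusted p = 0.00978 and 0.00197). In Sham and DPSC 0 genes passed limma, and 6 and 3 had an unadjusted p under 0.05, against 11.7% and 16.8% of all genes. Vegfa, the main ligand of the receptor that Kdr encodes, was -0.34 in Sham against NT (SE 0.13, adjusted p = 0.3 by limma). The list medians were 0.15, 0.29, 0.28 and 0.21 in Sham, MSC, MSCEPO and DPSC.

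The counter-receptors on leukocytes moved further. Of 15 tested, 10 rose in MSC against NT and 3 in MSCEPO, where 6.5% and 3.56% of all genes passed limma. In Sham and DPSC 0 passed, where 0.344% and 0.784% of all genes did. There limma gave an unadjusted p under 0.05 for 3 and 4, against 11.7% and 16.8% of all genes. The medians were 1.50, 0.80, 0.27 and 0.73 in MSC, MSCEPO, Sham and DPSC. Itgal and Itgam, the alpha chains of LFA-1 and Mac-1, and Itgb2, their shared beta chain, bind the protein that Icam1 encodes. In MSC they rose by 3.31, 2.65 and 2.38 (limma adjusted p = 0.00303, 0.00219 and 0.00391), and in MSCEPO by 2.15, 2.01 and 1.53 (limma adjusted p = 0.0288, 0.0103 and 0.0368).

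Itga4, a chain of the receptor for VCAM-1, rose in MSC by 2.05 (limma adjusted p = 0.0281), and Itgb7, a chain of the receptor for MAdCAM-1, by 1.50 (limma adjusted p = 0.0217). Both are named as partners of members and were picked after their values were seen. Without MSC replicate 1 and MSCEPO replicate 3, the counter-receptors that passed against NT were 9 of 15 in MSC, 10 in MSCEPO, 3 in Sham and 3 in DPSC.

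Tested genes of cytokines, their receptors and transcription factors that act upstream of adhesion molecules numbered 14. Of these, 7 rose in MSC, 4 in MSCEPO and 1 in DPSC, where 6.5%, 3.56% and 0.784% of all genes passed limma. In Sham 0 passed both limits, and limma gave 5 genes an unadjusted p under 0.05, against 11.7% of all genes. Tnfrsf1a, the TNF receptor that can induce Icam1 and Vcam1, rose by 1.40 in MSC (SE 0.18, adjusted p = 0.00112 by limma), 1.44 in MSCEPO (SE 0.18, adjusted p = 0.00088 by limma) and 1.04 in DPSC (SE 0.19, adjusted p = 0.0143 by limma). Tnfrsf1a was also higher in Sham than in NT, by 0.93 (SE 0.18, adjusted p = 0.0382 by limma), under the 2-fold limit. Relb, an NF-kB subunit, rose by 1.26 in MSC (adjusted p = 0.00227 by limma). Medians were 0.46, 1.14, 0.85 and 0.55 in Sham, MSC, MSCEPO and DPSC. In the fit without the 2 libraries that stood apart, 5 of 14 passed in MSC, 7 in MSCEPO, 2 in DPSC and 1 in Sham.

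Of 16 other adhesion and transmigration genes, 2 passed in MSC against NT, Glycam1 at 1.11 (adjusted p = 0.0474 by limma) and Cd34, which is also in the endothelial list. In Sham, MSCEPO and DPSC 0 passed limma. There 6, 10 and 5 had an unadjusted p under 0.05 by limma, against 11.7%, 25.7% and 16.8% of all genes. Cd47, a surface protein that takes part in transmigration, was higher in MSC by 0.93 (adjusted p = 0.0056 by limma), under the 2-fold limit. Of the 14 mural markers, Anpep rose in MSC by 1.16 (adjusted p = 0.0356 by limma) and no other gene of that list passed in any comparison with NT. Anpep in MSC was at 0.78 without the 2 libraries that stood apart, and 0 of the 14 passed in any group. Glycam1 was then at 0.78 in MSC (adjusted p = 0.0613 by limma), which did not pass, and at 1.24 in MSCEPO (adjusted p = 0.00763 by limma), which did.

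**Figure D3:**
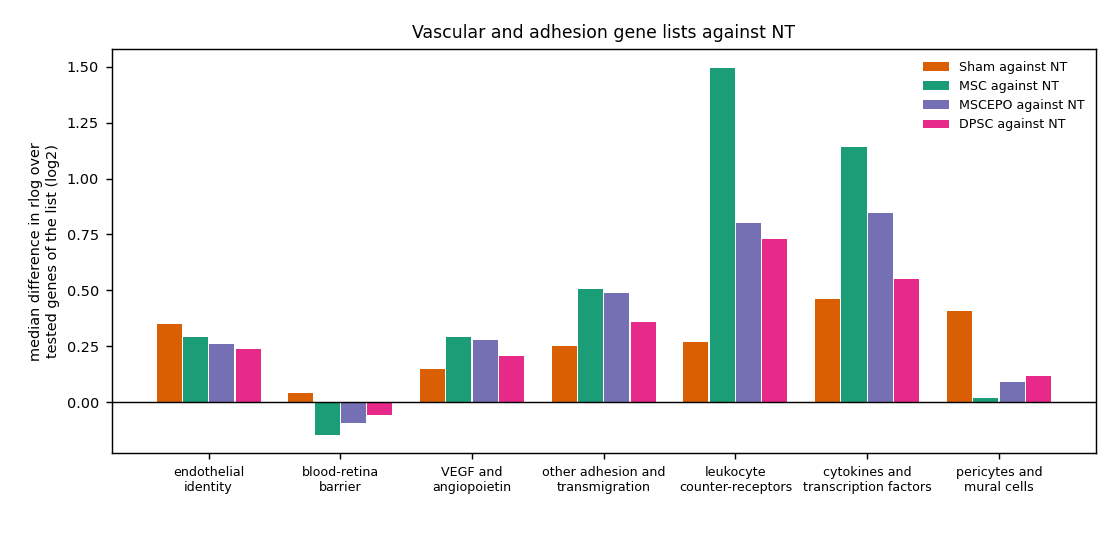
Median difference in rlog value from NT (log2, vertical axis) over the tested genes of 7 gene lists, for the Sham, MSC, MSCEPO and DPSC groups; each bar is 1 list in 1 group and has no error bar. The bars for leukocyte counter-receptors reach 1.50 in MSC and those for barrier genes stay between -0.15 and 0.04.

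Leukocyte markers were set beside the adhesion genes by library. Of 15 tested markers, 13 rose in MSC against NT and 5 in MSCEPO, where 6.5% and 3.56% of all genes passed limma. In Sham and DPSC 0 passed limma. There 4 each had an unadjusted p under 0.05 by limma, against 11.7% and 16.8% of all genes. Without the 2 libraries that stood apart, 11 passed in MSC, 10 in MSCEPO, 4 in Sham and 3 in DPSC. In Sham 11 of the 15 were higher than in NT, with a median of 0.08. Aif1, Cd68, Cd4 and Csf1r were higher by 1.35, 1.245, 1.18 and 1.04, and Cd3e, a T cell marker, by 0.08. The kinds of cells behind the markers were not told apart. The mean of the 15, as a difference from the NT mean, ran from -0.13 to 0.10 in NT and from 0.39 to 0.64 in Sham. It was 3.78, 2.15 and 1.46 in MSC, 1.93, 1.43 and 0.74 in MSCEPO and 0.52, 1.73 and 0.33 in DPSC. The library with the highest level was MSC replicate 1, which also had the highest Icam1 and Vcam1 values, and within each of MSC, MSCEPO and DPSC the libraries had the same order by marker level and by Vcam1. Icam1 did not keep this order in MSCEPO, where replicate 2, with the lower marker level, stood at 8.67 and replicate 1 at 8.52. Nor did Vcam1 keep it in Sham, where replicate 3 had the lowest marker level, 0.39, and the highest Vcam1 value, 10.90. DPSC replicate 1, at a level of 0.52, had a Vcam1 value of 11.11, above the 10.33 of MSC replicate 3 at 1.46.

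Ptprc, the pan-leukocyte marker CD45, was 6.88, 6.80 and 6.37 in NT and 7.64, 7.77 and 7.47 in Sham. It was 12.15, 10.49 and 9.59 in MSC, 10.31, 9.44 and 7.94 in MSCEPO and 7.97, 9.80 and 7.42 in DPSC, with a rise of 4.06 in MSC (adjusted p = 0.00266 by limma) and of 2.55 in MSCEPO (adjusted p = 0.0295 by limma). The T cell marker Cd3e ran from 4.06 to 4.43 in NT, 4.16 to 4.34 in Sham, 5.65 to 9.67 in MSC, 5.00 to 6.10 in MSCEPO and 4.41 to 5.53 in DPSC. Mpo, S100a8 and S100a9, markers of neutrophils, were the 3 of 18 listed markers that did not pass the filter. The part of leukocytes in the Icam1 and Vcam1 values was not tested.

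**Figure D4:**
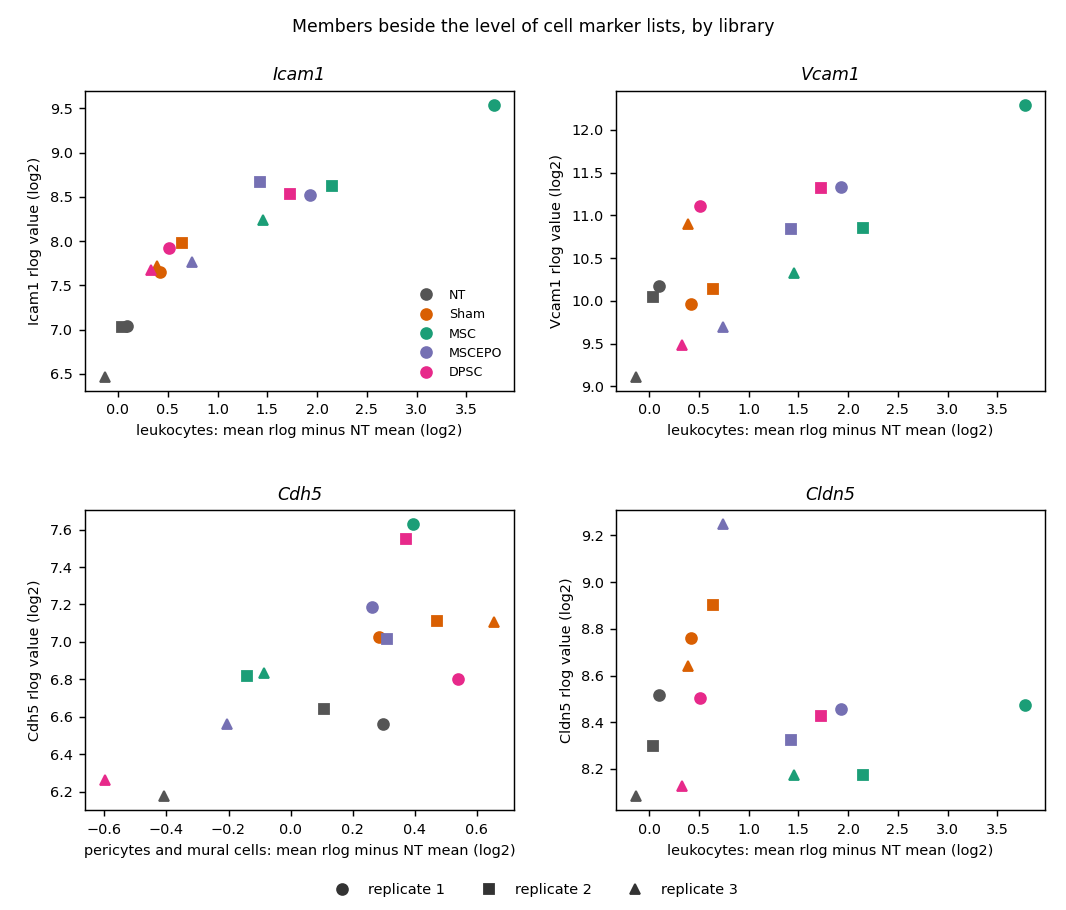
Icam1, Vcam1 and Cldn5 (rlog, vertical axes) beside the leukocyte marker level, and Cdh5 beside the mural marker level (horizontal axes, mean rlog minus NT mean, log2); each point is a library, coloured by group. MSC replicate 1, with a leukocyte level of 3.78, has the highest Icam1 and Vcam1 values, and the highest Cldn5 value, 9.25, is that of MSCEPO replicate 3 at a level of 0.74.

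Glial and photoreceptor markers moved as well. Gfap, a mark of reactive glia, rose in each group against NT, by 3.38 in Sham, 4.04 in MSC, 4.08 in MSCEPO and 3.40 in DPSC (limma adjusted p = 0.00111, 5.9e-05, 3.93e-05 and 0.000375). Of 9 rod genes, 8 fell in MSC, 9 in MSCEPO, 3 in DPSC and 1 in Sham against NT (limma, adjusted p under 0.05 and over 2-fold). The shares of all genes that passed were 6.5%, 3.56%, 0.784% and 0.344%. The medians of the rod genes were -1.37 in MSC, -1.39 in MSCEPO, -1.04 in DPSC and -0.81 in Sham. The mean of 8 pigment epithelium and choroid markers ran from -2.14 to 0.48 over the libraries, as a difference from the NT mean, with -2.14 in MSC replicate 3 and -1.67 in MSCEPO replicate 3. The mean of 3 haemoglobin genes ran from -0.71 to 3.01, and 0 of the 3 passed limma against NT in any group. By limma 3 in MSCEPO and 1 in DPSC had an unadjusted p under 0.05, against 25.7% and 16.8% of all genes. The part of these cells in the member values was not tested. Against Sham, with all libraries in the fit, 0 of the 147 genes in the 12 lists passed limma in MSC, MSCEPO or DPSC. The shares of all genes were 0.0843%, 0.0454% and 0.013%. At an unadjusted p under 0.05 the limma counts were 55, 22 and 4 of the 147, against 12.9%, 7.85% and 2.37% of all genes. Without the 2 libraries that stood apart, 12, 16 and 0 of the 147 passed, against 1.44%, 2.04% and 0.0389% of all genes. Of these, leukocyte markers made up 7 in MSC and 7 in MSCEPO, and counter-receptors 4 and 5.

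The genes whose pattern over the 15 libraries was most like that of Icam1 were sought among 15423 genes, as the smallest root mean square difference between profiles centred on their means. They were Clic1, Ctsh and Mvp, at 0.15, 0.15 and 0.16 log2 units, where the median over all genes was 0.77. Clic1 encodes a chloride intracellular channel protein, Ctsh the lysosomal protease cathepsin H, and Mvp the major vault protein. Mean rlog values of Clic1 were 8.55 in NT, 9.36 in Sham, 10.28 in MSC, 9.84 in MSCEPO and 9.52 in DPSC. For Vcam1 the nearest genes were Dpp4, Emp3 and Ifitm2, at 0.20, 0.24 and 0.24 (median of all genes 0.82). Dpp4 encodes the surface peptidase CD26 and Ifitm2 an interferon-induced membrane protein.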

How the data were processed

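RNA from 15 rat retina libraries, 3 in each of 5 groups taken from the sample labels, was sequenced. Per the submitters' processing notes and methods, the authors quantified reads with Salmon 1.1.0 on Rnor_6.0, summed them to genes and applied the rlog transformation of DESeq2. What the authors deposited are these log2 values, corrected for library size. No counts were used, so depth is unknown and no interval for counting error is given. A further 15 columns of per-sample values, a copy of the same values with 0 differing, were not used.

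Testing took the genes whose mean rlog reached 3.32 (log2 of 10), with limma 3.58.1 in R 4.3.3, with group means, moderated variances with a trend and Benjamini-Hochberg adjustment over all genes. The fit held the 12 libraries of NT, Sham, MSC and MSCEPO (15429 genes), or all 15 for DPSC (15424 genes). A gene passed at over 2-fold with adjusted p under 0.05. The fit was tested on simulated data. The members, lists and tests were chosen with earlier results of these data known, and the promoter motifs after the values were seen. Named genes are the members, up to 4 genes per list with the smallest adjusted p in the comparison described, fixed cell markers, and the 3 genes most like each member whose group means span over 1 log2 unit. Exceptions are Itga4, Itgb7, Glycam1, the neutrophil markers and the cytokine genes Ifng, Il6, Tnf, Il1b and Ltb, which were picked after their values were seen. A few genes named by this rule are not reported here. Libraries with the same replicate number deviated together only in MSCEPO and MSC (correlations of deviations from the group means 0.16 to 0.28), where a block for the number changed no call. Alternatives were the adjusted p alone, other filters, fits of fewer or more libraries, the block, median centring, quantile normalization, array weights, and libraries left out. Promoter sequences come from RefSeq.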

Additional observations from a re-analysis of the deposited data

How the results depend on the processing

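In MSC against NT the count of members that passed was 1 under each alternative run. In MSCEPO against NT it was 1, ran from 0 to 1 with 1 library left out in turn, and was 2 without MSC replicate 1 and MSCEPO replicate 3. In DPSC against NT it was 0, and became 1, Icam1, with only DPSC, NT and Sham in the fit (limma adjusted p = 0.0221), and without those 2 libraries (0.00896). With a block for the replicate number it was also 1 (limma adjusted p = 0.0297), but the numbers were not shown to pair these samples, with correlations from -0.08 to 0.35, and the block changed no other call on a member. In the remaining 5 comparisons the count was 0 throughout. By adjusted p alone, Cdh5 and Icam1 in Sham against NT went under 0.05 by limma in 3 of 16 alternatives. Cldn5, Kdr and Tek did so in 2, and Vcam1, Selp and Sele in 0. The cause of these moves was not tested. Of 528 recomputed values of 33 member differences, which include Selp and Sele in Sham against NT, 54 changed sign. The lowest adjusted p of those 54 was 0.34 by limma. Of 496 recomputed values of the other 31 differences, those named for members, 8 changed sign. Sele in MSC against NT was -0.075 with quantile normalization. Leaving out 1 library, Vcam1 ran from -0.069 to 0.75 in MSCEPO against Sham, from -0.038 to 0.88 in DPSC against Sham, and from -0.95 to 0.03 in MSCEPO against MSC. In MSCEPO against MSC, Icam1 and Vcam1 were 0.12 and 0.14 with array weights, and 0.16 and 0.49 without the 2 libraries. The counts of all genes that passed moved more, from 636 to 2390 in MSC against NT. With 3 libraries a group, no counts and shrunken values, small differences of low genes such as Selp and Sele are limited by the transformation.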
